A study of Lupinus micranthus with 18 samples.

Results

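The leaf response to 24 h of drought was compared between seedlings of Lupinus micranthus, a lupin of the legume family, grown from seeds of 2 origins. The comparison is a difference of responses: the change from untreated to treated leaves in Iceland seedlings minus the same change in America seedlings. Its members are 12 of the 18 leaf libraries of the series, 3 in each of 4 groups. These groups were untreated America seedlings, America seedlings after 24 h of PEG drought, untreated Iceland seedlings and Iceland seedlings after 24 h of PEG drought. PEG is polyethylene glycol, an osmolyte that lowers the water potential around the roots. The labels give no plant age, no PEG concentration and no hours for the untreated groups, so effects of the treatment cannot be told apart from those of harvest time or handling. The origins are named only as America and Iceland, so that a group stands for whatever seed stock was used. Whether the 3 replicates of a group came from different plants is not in the labels. P-values therefore reflect how far these samples differed, part of which may be technical.

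When a root meets dry or osmotically bound water, leaves accumulate the hormone abscisic acid, close their stomata and change the transcription of many genes, with protective proteins and osmolyte synthesis rising and photosynthetic growth functions commonly falling. A gene whose level differs between seed origins by the same factor with and without drought cancels out of a difference of responses. What remains are genes whose change under drought had another size or another direction in the second origin, the transcript counterpart of an interaction between genotype and environment. In leaf RNA, fewer cells of a type and less RNA per cell cannot be told apart.

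The deposited table gave counts and FPKM for 81470 unigenes, the usual word for transcripts assembled from reads, and paired none of the identifiers with a gene name. No gene function, pathway or leaf marker could be read from it, so results are described for groups of unigenes and for 8 identifiers. The 12 libraries held 9603068 to 12605500 counts each. A unigene with no count in a library may still hold up to 3 counts by counting error, which is 0.229 to 0.351 CPM. CPM values are the usual depth-scaled counts, with library sizes adjusted by TMM. Untreated Iceland replicate 3 stood apart from its group. It held 11.1% of its counts in the 20 most abundant unigenes, against 16.9% and 17.7% in replicates 1 and 2. Its mean correlation of log2 CPM with the Iceland libraries of 24 h was 0.87, against 0.817 and 0.81. The main counts of calls are therefore also given without it.

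The response to 24 h of PEG differed between the origins in 266 of 30895 unigenes tested, 0.861% of them, at an adjusted p under 0.05 (edgeR quasi-likelihood test, Benjamini-Hochberg). In 150 (0.486%) the Iceland response was the more positive one, and in 116 (0.375%) it was the more negative one. The median size of a called difference was 2.65 on the log2 scale, or 6.27-fold, and 245 of the 266 (0.793% of those tested) were at least 2-fold. In the 173 called unigenes with a mean of at least 1 CPM in each group the median was 1.69, or 3.23-fold. The smallest called difference was 0.67 on the log2 scale. For comparison, 40.3% of unigenes passed for the Iceland response itself (19.7% rose and 20.6% fell) and 31.1% for the America response (16% rose and 15.1% fell), in tests that share these libraries. Without untreated Iceland replicate 3 these shares were 42% and 31.6%, and the difference was called in 952 unigenes, 554 more positive and 398 more negative, among them 260 of the 266. Without untreated America replicate 2 it was called in 29, all among the 266. Without any 1 of the other 16 libraries the count was 80 to 437, within 1.5 times of 266 for Iceland 72 h replicate 3 alone (183). A fit of the 12 libraries alone, without the 72 h groups that add to the estimate of spread, called 16, of which 15 were among the 266. The filter was rerun in each of these fits, so the unigenes tested changed as well. They numbered 32598 to 33097 with 1 library left out and 28418 with the 12 libraries.

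**Figure D1:**
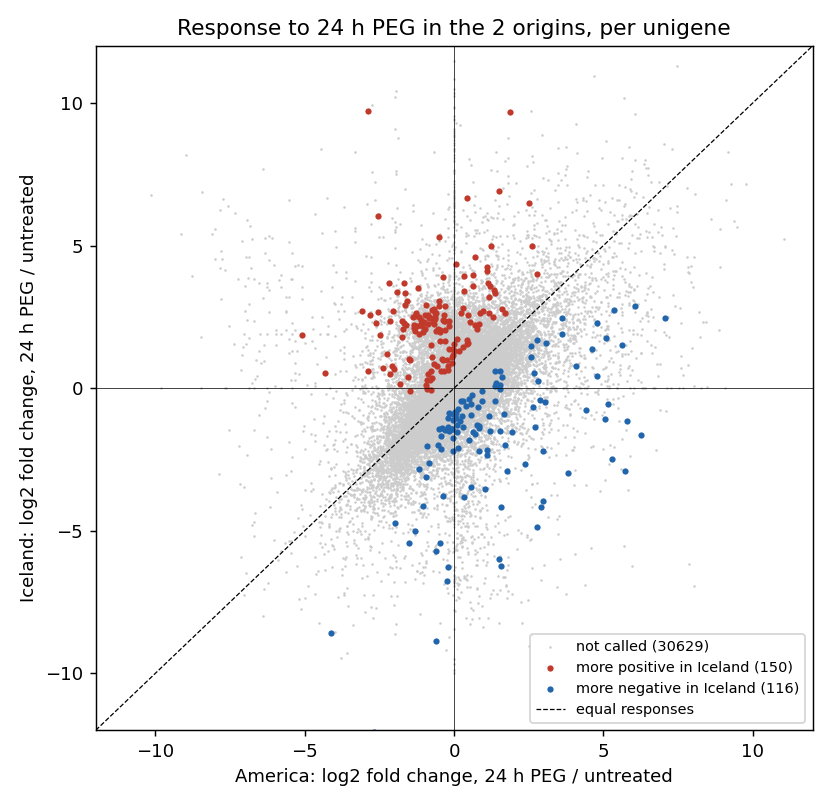
Each point is a unigene, with its log2 fold change between 24 h PEG and untreated leaves in America on the x axis and in Iceland on the y axis; 1 unigene lies outside the axes. The 150 red points have a more positive response in Iceland and lie above the dashed line of equal responses, and the 116 blue points have a more negative one and lie below it.

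Tests differed in how many unigenes they called. The DESeq2 Wald test called 1481 (4.8%) and limma-voom 69 (0.223%), while 5253 (17%) had an unadjusted p under 0.05 in edgeR. All 266 were among the DESeq2 calls with the same direction, and 65 were among those of limma-voom. The adjusted p of the last unigene inside the threshold was 0.0499 and that of the first outside it 0.0506. As a description of the values behind the calls, every pairwise Iceland response (each 24 h library against each untreated one) lay beyond every pairwise America response in 264 of the 266. That was so in 8.72% of all unigenes tested.

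**Figure D2:**
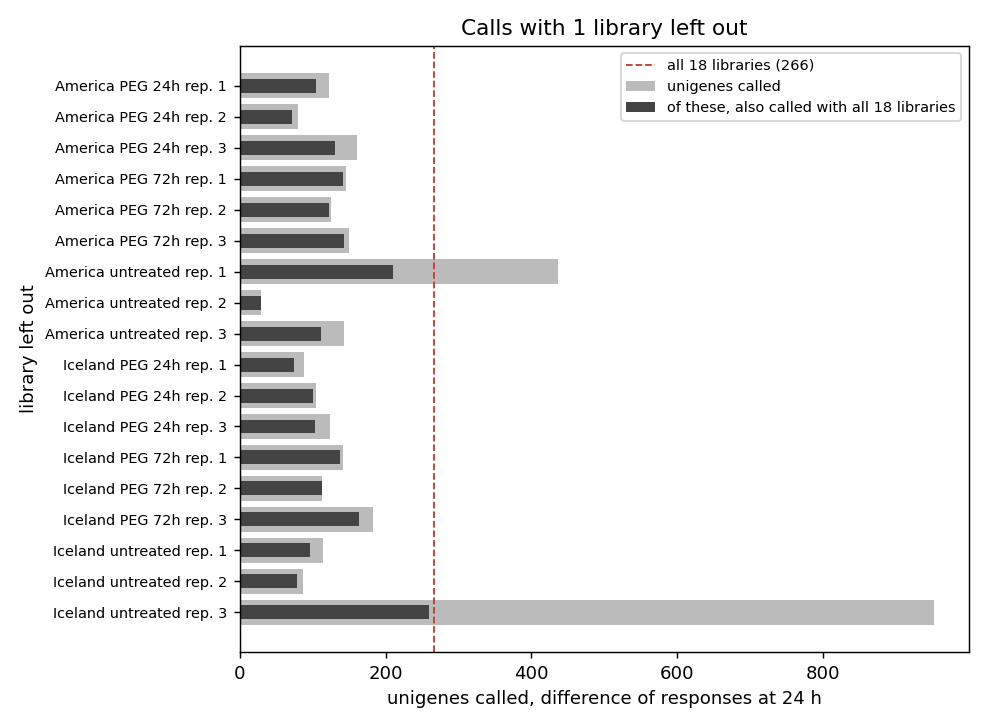
Bars show how many unigenes were called for the difference of responses at 24 h (x axis) when the library on the y axis was left out; the dark part counts those that were also among the 266 called with all 18 libraries (dashed line). The count ranged from 29 without untreated America replicate 2 to 952 without untreated Iceland replicate 3.

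A smaller set kept its calls whichever library was left out. In each of 18 refits that left out 1 library, 25 of the 266 kept their call, 15 more positive and 10 more negative in Iceland. Their median difference was 8.55-fold, and 19 of them had a mean of at least 1 CPM in every group of the comparison. Of these 25, 8 responded in opposite directions in the 2 origins, 7 rises and 3 falls were called in Iceland alone, 1 rise and 1 fall in America alone, and 5 changed the same way in both. In the fit of the 12 libraries alone 12 of the 25 were also called.

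The called unigenes were next sorted by the response in each origin. The sorting uses the libraries that gave the calls, so that it describes where the differences lay and is no separate evidence. In the 150 unigenes with a more positive response in Iceland, the median log2 fold change was 2.32 in Iceland (interquartile range 1.46 to 2.76) and -0.64 in America (-1.3 to 0.10). In the 116 with a more negative response the median was -1.36 in Iceland (-2.39 to -0.44) and 0.83 in America (-0.05 to 2.68). Over all unigenes tested the medians were 0.02 and 0.01. The median difference was 3.00 in the first list and -2.20 in the second. With unigenes that had no count in a group set at their limit of 3 counts over that group it was 2.98 and -2.20.

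A response called in Iceland alone was the most frequent pattern. Over all unigenes tested a response was also called more often in Iceland (40.3%) than in America (31.1%). How often each pattern occurred over all unigenes tested was not counted. It held 86 unigenes that rose in Iceland, with a median log2 fold change of 2.36 there against -0.48 in America, and an interquartile range in America of -0.96 to -0.03. It also held 48 that fell in Iceland, with a median of -1.57 against 0.08 in America (-0.20 to 0.51). A response called in America alone was found in 21 that rose there, with a median of 2.69 (2.67 with groups of no count at their limit) against -0.43 in Iceland, and in 17 that fell, with a median of -1.55 against 0.39. A missing call in 1 origin does not show that its unigenes did not respond. Without untreated Iceland replicate 3 the split was 324 rises and 208 falls called in Iceland alone against 43 and 48 in America alone, and without untreated America replicate 2 it was 9 and 3 against 2 and 1.

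In 46 of the called unigenes both responses were called, in opposite directions. Of these, 26 rose in Iceland and fell in America, with median log2 fold changes of 2.19 and -1.63. The other 20 fell in Iceland and rose in America, with medians of -1.78 (-1.68 with groups of no count at their limit) and 1.74. The median difference of responses in these 46 was 3.67 on the log2 scale. Of the 46, 24 had a mean of at least 1 CPM in each group. Choosing unigenes by their difference of responses favours opposite directions, and the share of this pattern over all unigenes tested was not counted.

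In the remaining 48 the direction was the same and the size differed. In 21 the rise was larger in Iceland, with a median log2 fold change of 2.77 against 1.17 in America. In 16 the rise was larger in America, at 3.60 against 1.63. In 11 the fall was larger in Iceland, at -3.11 against -1.19. No called unigene fell in both origins with the larger fall in America. The shares of these patterns over all unigenes tested were not counted either. Without untreated Iceland replicate 3, 105 of the 952 were opposite and 224 had the same direction, and without untreated America replicate 2 the numbers were 6 and 8 of 29.

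**Figure D3:**
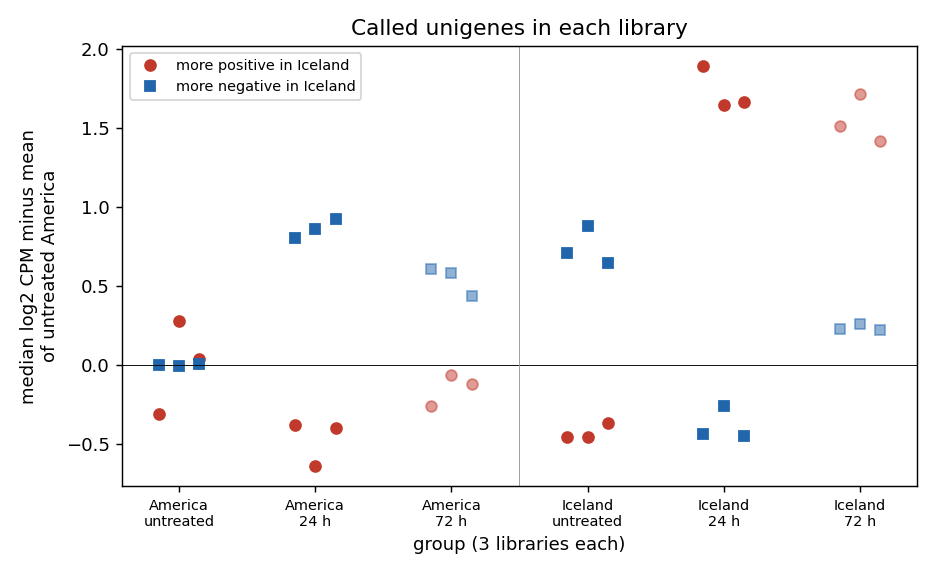
For each library (x axis, by group) the points give the median, over the 150 unigenes with a more positive response in Iceland (red circles) and the 116 with a more negative one (blue squares), of log2 CPM minus the mean of untreated America. The libraries of 72 h, drawn paler, are not in the contrast but entered the filter and the estimate of spread behind the calls; there the red circles lie between 1.42 and 1.72 in Iceland and below 0 in America.

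The level of each list in each library showed how the groups differed. For the unigenes with a more positive response, the list median relative to untreated America was -0.45, -0.45 and -0.37 in the 3 untreated Iceland libraries and 1.89, 1.65 and 1.66 after 24 h. In America it was -0.31, 0.28 and 0.04 without treatment, with replicates 1 and 2 farthest apart, and -0.38, -0.64 and -0.40 after 24 h. For the unigenes with a more negative response it was 0.71, 0.88 and 0.65 in untreated Iceland leaves, -0.43, -0.26 and -0.45 after 24 h there, and 0.80, 0.86 and 0.92 in America after 24 h. Untreated Iceland replicate 3 was the library of its group nearest to untreated America in both lists, by a small margin. The groups of 24 h did not overlap between origins in either list, as the choice of the unigenes fixes.

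The same difference can be read as an origin difference that changed under PEG. Among the 266, 179 differed between origins at 24 h and not without treatment (edgeR adjusted p under 0.05), 53 without treatment and not at 24 h, 27 in both and 7 in neither. Over all 30895 unigenes tested these numbers were 3770, 1043, 528 and 25554, so a difference at 24 h alone was also the more frequent there. Of the 27, 23 reversed, being higher in one origin without treatment and higher in the other after 24 h. Of the 528 over all unigenes tested the same 23 reversed and 505 did not. A reversal is itself a difference of responses, so that its frequency among the calls follows from their choice. Over all unigenes tested, 5.08% passed for the origin difference without treatment and 13.9% for that at 24 h. Without untreated Iceland replicate 3 these shares were 7.8% and 16.4%, and of 952 called unigenes 437 differed at 24 h alone, 391 without treatment alone, 77 in both and 47 in neither. Without untreated America replicate 2 the shares were 1.94% and 12.5%, and the split of 29 was 19, 5, 5 and 0. Leaving out any 1 of the other 4 untreated libraries took the 1571 unigenes behind the first share to between 694 and 861. Leaving out replicate 1 or 2 of either group of 24 h took the 4298 behind the second share to between 2198 and 2525. In the unigenes with a more positive response 125 of 150 were higher in Iceland at 24 h (7.95% of all tested) and 34 were lower without treatment (2.34%). In those with a more negative response 79 of 116 were lower in Iceland at 24 h (5.96%) and 44 were higher without treatment (2.74%). These shares follow in part from the choice of the unigenes and are given as a description.

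The libraries of 72 h PEG are not in the contrast and give levels of the same unigenes at another time. They did enter the filter and the estimate of spread of the fit that called the 266, so that they are not wholly apart from the choice of the list. In a fit of those 6 libraries alone, 75 of the 150 unigenes with a more positive response at 24 h were higher in Iceland than in America at 72 h, or 50%, against 11.1% of all unigenes tested. Another 8 were lower. That fit compares levels between origins and is no test of a difference of responses. Already at 24 h, 125 of these 150 were called higher in Iceland, and 79 of the 116 with a more negative response lower. The shares at 72 h are therefore given as a description of levels. Of the 116 with a more negative response, 29 were lower in Iceland at 72 h, or 25%, against 7.85% of all tested, and 5 were higher. These 29 became 14 and 15 without Iceland 72 h replicate 2 or 1, and 15 and 19 without America 72 h replicate 2 or 1. By sign alone, the Iceland level at 72 h lay above that of America in 124 of the 150 and below it in 83 of the 116, against 48.3% and 51.6% of all unigenes tested. A list chosen with no 72 h library was taken as the 266 unigenes of smallest p in the fit of the 12 libraries, 198 of which were among the 266 called. Of its 157 with a more positive response 74 were higher in Iceland at 72 h (47.1%) and 11 lower, and of its 109 with a more negative response 20 were lower (18.3%) and 6 higher. Of the 16 called in that fit, 1 of 9 was higher (11.1%, the same as the share of all unigenes tested) and 2 of 7 were lower (28.6%). In the 549 unigenes with a more positive response that were called without untreated Iceland replicate 3 and tested at 72 h, 27.5% were higher in Iceland at 72 h, and of the 387 with a more negative response 20.7% were lower. Without untreated America replicate 2 the shares were 5 of 15 and 3 of 14.

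The level at 72 h was also read by the kind of response at 24 h, as Iceland minus America. Over all unigenes tested 11.1% were higher and 7.85% lower in Iceland at 72 h. Several of the lists are small, and some of their shares lay near these. Of the 86 unigenes that rose in Iceland without a call in America, 50 were higher in Iceland at 72 h, with a list median of 2.68 on the log2 scale against 2.75 at 24 h. Of the 26 that rose in Iceland and fell in America 15 were higher, with medians of 1.58 and 2.43. Of the 21 that rose in both and more in Iceland 6 were higher, with medians of 0.25 and 1.23, and of the 17 that fell in America without a call in Iceland 4 were higher and 2 lower, with medians of 0.13 and 0.81. The list medians at 72 h were thus near those at 24 h in the first kind and smaller in the other three. Of the 48 that fell in Iceland without a call in America 12 were lower in Iceland at 72 h, with medians of -0.26 and -1.22. Of the 20 that fell in Iceland and rose in America 5 were lower, with medians of -0.29 and -1.31. Of the 21 that rose in America without a call in Iceland 8 were lower and 3 higher, with medians of -0.52 and -0.97. Of the 16 that rose in both and more in America 2 were lower, with medians of -0.22 and -0.40, and of the 11 that fell in both and more in Iceland 2 were lower and 1 higher, with medians of -0.32 and -1.92. These differences between kinds of response were not tested.

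The identifiers described one by one were the unigenes of smallest p in each kind of response, with a mean of at least 1 CPM in all 4 groups so that neither fold change rests on a group near 0. Values are CPM in replicates 1, 2 and 3. Near-identical unigenes may share reads, and how such reads were divided is not given in the sources used here. The first of them had a response called in a single origin.

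Unigene0027551 rose in Iceland leaves under PEG. It stood at 8.03, 7.75 and 9.22 CPM without treatment and 39.2, 29.7 and 43.6 after 24 h there, and at 11, 10.5 and 14.8 and 10.2, 13.1 and 9.19 in America. All 3 Iceland libraries of 24 h lay above every other library, and the remaining groups overlapped or lay close together. The rise in Iceland was 4.49-fold (log2 2.17 ± 0.20 SE, edgeR adjusted p = 2.79e-06), the log2 change in America -0.16 ± 0.20 (adjusted p = 0.601), and the difference 2.33 ± 0.28 (adjusted p = 0.00337). At 72 h it stood at 10.1, 12.2 and 13.3 CPM in Iceland and 10.9, 9.19 and 12.4 in America (log2 difference 0.15, edgeR adjusted p = 0.623), so that the excess seen at 24 h was not called at 72 h.

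Unigene0040804 fell in Iceland leaves. Its values were 26.8, 26.2 and 19.4 CPM in untreated Iceland leaves and 6.08, 4.48 and 6.13 after 24 h, against 8.07, 8.62 and 8.18 and 6.51, 9.97 and 10.6 in America. Untreated Iceland leaves were the high group, above all others without overlap. The fall was 4.34-fold (log2 -2.12 ± 0.20 SE, edgeR adjusted p = 2.63e-06), the log2 change in America 0.12 ± 0.19 (adjusted p = 0.689), and the difference -2.24 ± 0.27 (adjusted p = 0.00337). Before treatment it was higher in Iceland by 1.54 on the log2 scale (adjusted p = 0.00063) and after 24 h lower by 0.70 (log2 difference -0.70, adjusted p = 0.0285). The values at 72 h were 9.56, 10.2 and 11 CPM in Iceland and 14.6, 13.9 and 13.9 in America (log2 difference -0.45, edgeR adjusted p = 0.0712).

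Unigene0003190 rose in America leaves. It went from 2.84, 1.45 and 3.04 CPM to 16.9, 27.4 and 17 there, and stood at 14.1, 15.7 and 11.3 and 9.76, 9.2 and 10.6 CPM in Iceland. Untreated America leaves were low, below all other libraries of the comparison. The rise in America was 8.31-fold (log2 3.06 ± 0.39 SE, edgeR adjusted p = 5.15e-05), the log2 change in Iceland -0.48 ± 0.35 (adjusted p = 0.296), and the difference -3.53 ± 0.52 (adjusted p = 0.0113). At 72 h it stood at 25, 9.1 and 8.85 CPM in America and 4.06, 4.13 and 4.81 in Iceland, lower in Iceland by a log2 difference of -1.71 (edgeR adjusted p = 0.0269).

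Unigene0005951 fell in America leaves, from 17.8, 27.7 and 26.5 CPM to 6.59, 8.98 and 5.1, and stood at 12, 9.98 and 9.92 and 9.86, 10.1 and 14.9 CPM in Iceland. Untreated America leaves were high and America leaves of 24 h low, with both Iceland groups between them. The fall was 3.48-fold (log2 -1.80 ± 0.23 SE, edgeR adjusted p = 4.76e-05), the log2 change in Iceland 0.13 ± 0.22 (adjusted p = 0.678), and the difference 1.92 ± 0.32 (adjusted p = 0.0168). The call was lost in the fit of the 12 libraries alone and without untreated America replicate 2, with adjusted p up to 0.0899. At 72 h it was lower in Iceland, at 7.7, 8.65 and 7.46 CPM against 14.9, 14.9 and 16 (log2 difference -0.93, edgeR adjusted p = 0.00782), while at 24 h it had been higher there (log2 difference 0.75, adjusted p = 0.0388).

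**Figure D4:**
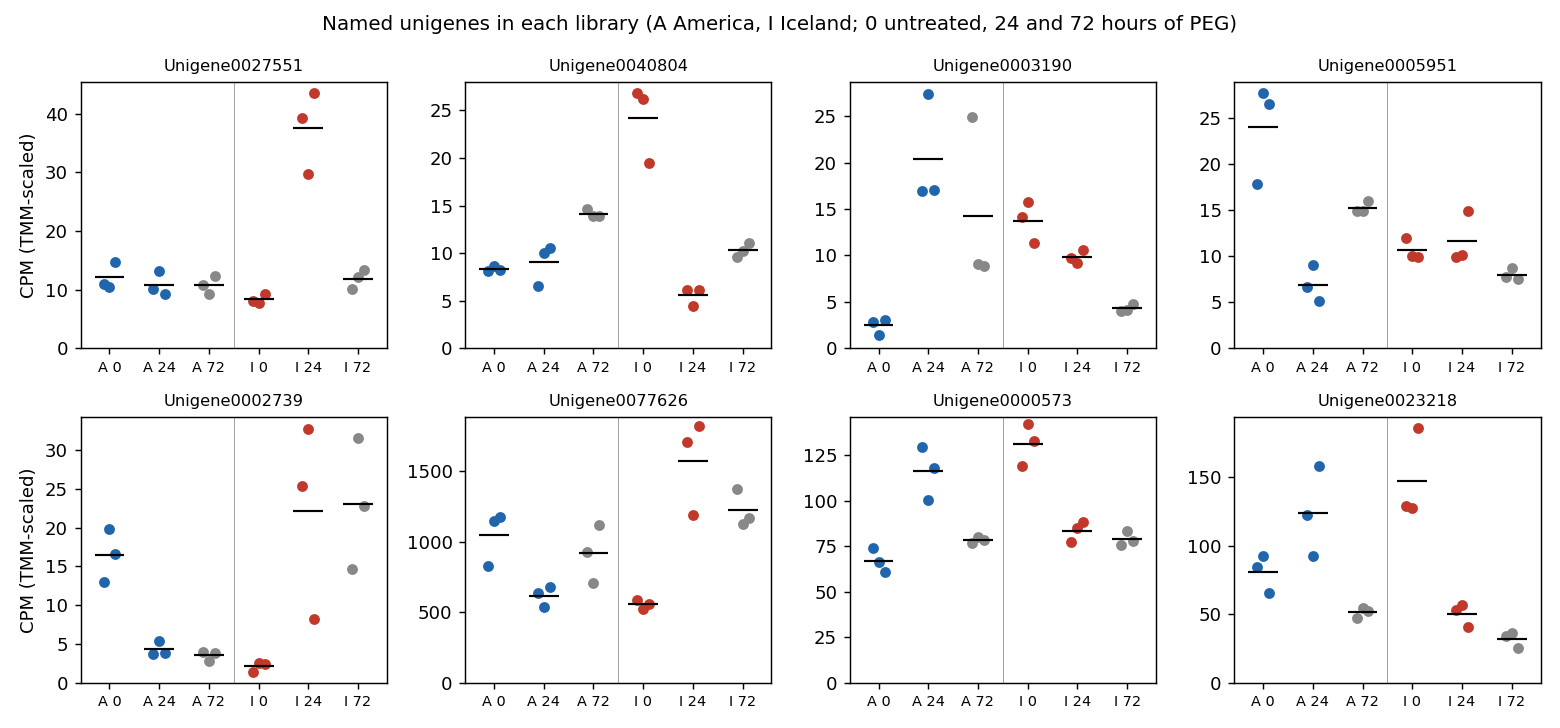
CPM (y axis, from 0) of the 8 named unigenes in each library, with America groups (A) in blue, Iceland groups (I) in red and the 72 h groups, not in the contrast, in grey; black lines are group means of 3 libraries. In Unigene0002739 and Unigene0077626 the blue points fall and the red points rise under 24 h of PEG, and in Unigene0000573 and Unigene0023218 the reverse. The blue groups of Unigene0023218 overlap.

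The other 4 responded in opposite directions. Unigene0002739 fell in America from 13, 19.8 and 16.6 CPM to 3.73, 5.37 and 3.82, and rose in Iceland from 1.42, 2.58 and 2.4 to 25.4, 32.7 and 8.27. Iceland leaves were the low group without treatment and the high group after 24 h, with no overlap between origins at either time, although the 3 Iceland libraries of 24 h were widely spread. The log2 fold change was 3.37 ± 0.45 SE in Iceland (edgeR adjusted p = 4.56e-05) and -1.93 ± 0.41 in America (adjusted p = 0.00234), a difference of 5.30 ± 0.61 or 39.4-fold (adjusted p = 0.0032). The Iceland level stayed above that of America at 72 h, at 14.6, 31.6 and 22.8 CPM against 4.02, 2.86 and 3.87 (log2 difference 2.68, edgeR adjusted p = 0.00235).

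Unigene0077626 showed the same pair of directions. It fell in America from 831, 1149 and 1174 CPM to 639.9, 539.7 and 677, and rose in Iceland from 584, 523 and 562 to 1709, 1193 and 1819. The origins did not overlap in either treatment, and exchanged places between them. The log2 fold change was 1.5 ± 0.20 SE in Iceland (edgeR adjusted p = 5.77e-05) and -0.76 ± 0.20 in America (adjusted p = 0.0092), a difference of 2.26 ± 0.29 (adjusted p = 0.00426). At 72 h the values were 1373, 1128 and 1171 CPM in Iceland and 926, 708 and 1121 in America (log2 difference 0.43, edgeR adjusted p = 0.153).

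Unigene0000573 rose in America from 73.9, 66.4 and 61 CPM to 129.6, 100.3 and 118, and fell in Iceland from 119, 142 and 132 to 77.6, 84.9 and 88. Again the origins did not overlap in either treatment and exchanged places. The changes were small with little spread, a log2 fold change of -0.65 ± 0.12 SE in Iceland (edgeR adjusted p = 0.000574) and 0.79 ± 0.12 in America (adjusted p = 0.000193), and the difference was -1.44 ± 0.17 (adjusted p = 0.0032). At 72 h the origins overlapped, at 75.9, 83.3 and 78.1 CPM in Iceland and 76.6, 80.1 and 78.2 in America (log2 difference 0.03, edgeR adjusted p = 0.887).

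Unigene0023218 rose in America from 84.3, 92.9 and 65.3 CPM to 122, 92.4 and 158, and fell in Iceland from 129, 127 and 186 to 53.1, 56.8 and 41.1. In America the groups overlapped, at 65.3 to 92.9 CPM without treatment and 92.4 to 158 after 24 h, while in Iceland they did not. The log2 fold change was -1.55 ± 0.22 SE in Iceland (edgeR adjusted p = 7.29e-05) and 0.62 ± 0.21 in America (adjusted p = 0.0376), a difference of -2.17 ± 0.30 (adjusted p = 0.0091). In the fit of the 12 libraries alone its adjusted p was 0.0597. At 72 h it was lower in Iceland, at 33.9, 36.5 and 25.8 CPM against 47.7, 54.4 and 52.5 (log2 difference -0.67, edgeR adjusted p = 0.0212).

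Calls and their precision were also compared by mean level. In 4 equal classes of mean level, with median CPM of 0.686, 2.32, 10.4 and 46, the share called was 0.44%, 0.932%, 0.984% and 1.09%. The median standard error of the log2 difference fell from 1.35 in the lowest class to 0.69, 0.36 and 0.26 in the others. The median called difference was 46.9-fold in the lowest class, and 10.8-fold, 5.05-fold and 2.39-fold in the next ones. The smallest difference called was 12.9-fold in the lowest class, and 3.39-fold, 1.64-fold and 1.59-fold in the next ones. These are the smallest differences among the calls of this fit and no limit of detection. Without untreated Iceland replicate 3 the shares called were 1.37%, 2.77%, 3.28% and 4.1%, with a smallest called difference of 10.7-fold in the lowest class, while the refit that omitted untreated America replicate 2 called 0%, 0.0725%, 0.157% and 0.121% of the 4 classes.

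**Figure D5:**
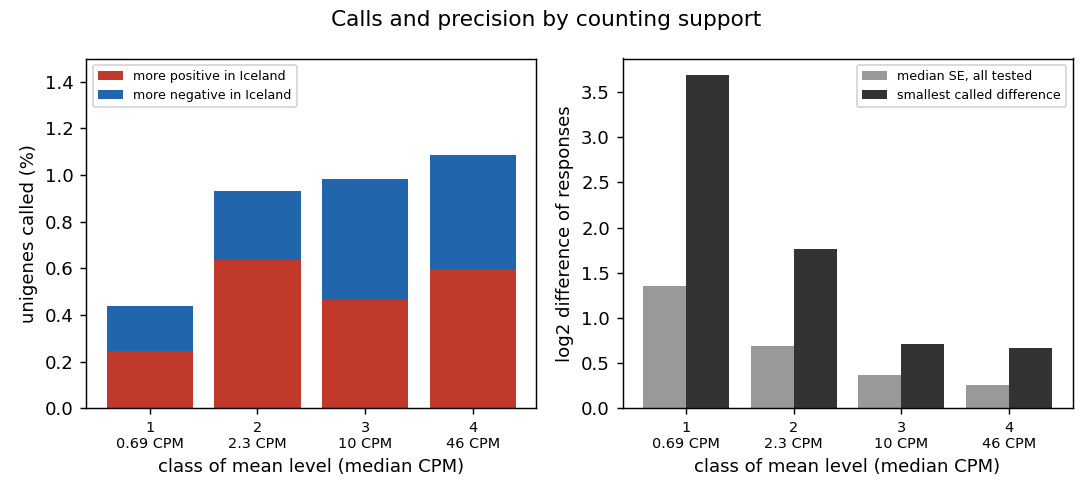
Left, the share of unigenes called (y axis, %) in 4 equal classes of mean level (x axis, with the median CPM of each), split by direction. Right, the median standard error of the log2 difference over all unigenes tested (grey) and the smallest called difference (black), both largest in the lowest class.

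A missing call is not evidence of equal responses. Of the 20238 unigenes with a mean of at least 1 CPM in each of the 4 groups, 173 were called, with 616 of 19995 without untreated Iceland replicate 3 and 22 of 20217 without untreated America replicate 2. In 7763 of the 20238, or 38.4%, the 95% interval of the difference lay within 2-fold either way, among them 1 called unigene. In 12303, or 60.8%, no difference was called and the interval reached past 2-fold. The median half-width of the interval was 0.79 on the log2 scale, or 1.73-fold.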

How the data were processed

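Messenger RNA of leaves was sequenced in 18 libraries, of which 12 carry the comparison. Per the labels' protocols, total RNA was extracted with Trizol. RSEM 1.3.1, cutadapt 1.18 and bcl2fastq 2.0.1 appear in the submitters' processing notes without their roles; assembly and strand were not given in the sources used here. Per the file headers, the authors deposited a count and an FPKM column for each library. The deposited counts are whole numbers, used as they stand. The deposited FPKM values are the counts divided by library total and by 1 length per unigene (implied lengths of 682 abundant unigenes differed by at most 0.0689% between libraries), and served only for lengths and levels per length.

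In R 4.3.3, unigenes were filtered with filterByExpr and scaled by TMM, and modelled with edgeR 4.0.16 by quasi-likelihood as 6 group means over the 18 libraries, leaving 12 residual degrees of freedom. P-values were adjusted by Benjamini-Hochberg over all 30895 unigenes, with a threshold of 0.05. A prior count of 2 enters log2 CPM. The 6 libraries of 72 h, which had also entered that filter and dispersion, were fitted alone for the origin difference at 72 h. Library measures were tested by exact permutation of origin within treatment (400 relabellings, two-sided, smallest possible p 0.005). No 2 replicates were alike enough to be 1 library (chi-square per unigene 8.85 to 80.9 in 12 pairs, against 1 for sampling noise). Named unigenes had to pass the threshold with at least 1 CPM in each group: 1 of smallest p for each response called in a single origin and direction, and 2 for each opposite pair of directions. The comparison, the lists and this rule were chosen with earlier results of these data known. Alternatives were the Wald test of DESeq2 1.42.0, its size factors, limma-voom (limma 3.58.1), no filter, 12 libraries alone, a minimum of 2-fold, a robust prior, the replicate number as a block, and each library left out; lists without 2 single libraries, and the list of smallest p in the fit of 12 libraries, were added after seeing the data. Settings planned for a table of FPKM only were not needed.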

Additional observations from a re-analysis of the deposited data

Results flagged for a closer look

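By a test of the difference itself, the response to 24 h of PEG differed between America and Iceland seedlings in 266 of 30895 unigenes, or 0.861%. The test was edgeR quasi-likelihood, adjusted over all unigenes tested. With 1 library left out it called 29 to 952. The 8 named unigenes passed the same test because the rule for naming required it, so they are no separate evidence. The log2 differences of responses, Iceland minus America, were 2.33 in Unigene0027551, 1.92 in Unigene0005951, 5.30 in Unigene0002739 and 2.26 in Unigene0077626. They were -2.24 in Unigene0040804, -3.53 in Unigene0003190, -1.44 in Unigene0000573 and -2.17 in Unigene0023218.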

How the results depend on the processing

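The count of 266 unigenes depended on the test and on the libraries. With no filter on low counts it was 585, with limma-voom 69, with the DESeq2 Wald test 1481 and in the fit of 12 libraries alone 16. DESeq2 size factors gave 266 (170 more positive, 96 more negative), a minimum of 2-fold 245 and a robust prior 229. Leaving out 1 library, with the filter rerun, gave 29 to 952. Correlations of deviations were -0.146 to 0.165 over 18 same-numbered pairs, 3 of them over 0.1. The own number was best in 14 of 36 cases, among the 3 libraries of another group. Whether the replicate numbers pair the libraries was not tested beyond these values. With a replicate block 148 unigenes passed. The 1571 unigenes that differed between origins without treatment became 2766 with DESeq2 and 860 with 12 libraries, and 641 to 2580 when 1 library was left out. The 4298 that differed at 24 h became 5726 with DESeq2 and 2452 with 12 libraries, and 2198 to 5416 when 1 library was left out. The Iceland and America responses stayed within 1.5 times their counts under every alternative run. Of the 266, 104 were higher or lower in Iceland at 72 h as the sign of their difference of responses, with 95 to 114 under other tests or scalings, 73 to 105 without 1 library and 94 in the list of smallest p in the fit of 12 libraries. Of 200 refits of named unigenes 197 kept the call and none turned direction. Unigene0005951 lost it in 2 and Unigene0023218 in 1. The named unigenes were chosen by smallest p in these same libraries, so they do not stand for the other calls. Of all 266 calls, 25 were kept in each of the 18 refits that left out 1 library. The difference in the share of counts in the 20 most abundant unigenes, 1.27 points, ranged from -0.781 (without untreated Iceland replicate 3) to 2.51 points. The cause of these changes was not tested. The median standard error of the difference was largest, at 1.35 on the log2 scale, in the lowest class of mean level.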

Other observations

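Among the 20 most abundant unigenes none was called for the difference of responses at 24 h (edgeR; DESeq2 and limma-voom also called 0), 1 had an unadjusted p under 0.05, and the median log2 fold change was -0.86 in Iceland and -1.03 in America. Among the 200 most abundant 2 were called, both more positive in Iceland, a share of 1% against 0.861% of all unigenes tested, and 25 had an unadjusted p under 0.05. DESeq2 called 14 of the 200, against 4.8% of all it tested, and limma-voom 2. Without untreated Iceland replicate 3 edgeR called 14 of the 200, without untreated America replicate 2 it called 1, and none of the 20 was called in either. In these 200 unigenes 51 rose and 86 fell in Iceland, and 48 rose and 90 fell in America. The share of counts in the 20 most abundant fell by 5.04 points in Iceland and fell by 6.31 points in America, a difference of responses of 1.27 points (exact permutation test, p = 0.635). At an equal depth of 9603068 counts the number of unigenes with at least 1 count rose by 3788 in Iceland and by 2775 in America, a difference of 1013 (exact permutation test, p = 0.405). It ranged from 416 to 1759 when 1 library was left out.

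Per unit of length, the called unigenes had a median of 7.82 FPKM over the 12 libraries (interquartile range 2.2 to 20), against 4.29 FPKM (1.3 to 12.7) for all unigenes tested. The 21 that rose in both origins and more in Iceland had the highest median of the kinds of response, 33.2 FPKM, and the 26 that rose in Iceland and fell in America the lowest, 2.14 FPKM. The implied length of the called unigenes had a median of 1477 bases (1023 to 2126), against 1362 bases (821 to 2128) for all tested. Of the 266, 12 had no count in at least 1 of the 4 groups (4.51%, against 4.33% of all tested). These values were not tested.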
